A study of Mus musculus with 6 samples.

Results

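The RAS-RAF-MEK-ERK cascade was described from peak lists of wild-type B16 cells, a mouse melanoma line. Its 7 genes were taken by symbol from RefSeq GRCm38, of 21887 protein-coding genes on the nuclear chromosomes: Hras and Nras, Araf and Braf, Map2k1 and Map2k2, and Mapk3. The peak lists came from CUT&Tag, in which an antibody held on chromatin directs the Tn5 transposase to cut and tag the DNA around its target. There was 1 library for p300, the acetyltransferase encoded by Ep300 that is found at active enhancers and promoters, and 1 for H3K4me3, the trimethylated histone H3 lysine that marks active promoters. Both libraries had the wild-type genotype, with no treatment named. The other 4 libraries, for H3K9me3 in cells lacking Tdg and Trp53 together, lacking Trp53, lacking Tdg, and in wild-type cells, were not analysed here, and the description covers wild-type cells alone. The comparison addressed which of these signalling genes carried the promoter mark and p300 in the parental cells.

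The cascade carries growth signals from the cell surface to the nucleus. A receptor loads a RAS protein with GTP, RAS draws a RAF kinase to the membrane, RAF phosphorylates MEK, and MEK phosphorylates ERK, which enters the nucleus. It drives the growth of many melanomas, where it is often switched on by a mutation in a RAS or RAF gene, and in pigment cells it also acts on the lineage factor MITF. A peak list says nothing of such mutations or of kinase activity.

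On the nuclear chromosomes 6512 p300 peaks and 27019 H3K4me3 peaks were listed. Each has no replicate, so no test between samples was possible and all values below are descriptions of these libraries. Read totals are unknown, and a gene without a listed peak had none detectable at this depth. H3K4me3 lay within 1 kb of a gene end at 9 of 10 melanocyte genes, among them Mitf, Sox10, Tyr and Dct, with the melanosome gene Mlana the exception. Of 6 leukocyte genes it marked Cd68 alone, of 6 genes of stroma and vessels Col1a1 alone, and of 6 epithelial genes 0. Among all protein-coding genes 50.5% had such a peak.

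Of the 7 cascade genes, 6 carried H3K4me3 at an end, and Araf carried it at a start site inside its annotated span. An end peak was one lying 1 kb or less from the lower or upper end of the annotated gene. In the gene or within 1 kb of it H3K4me3 was found for 7 of 7, beside 58.9% of all protein-coding genes. The count of 6 of 7 is a share of 85.7% (42.1 to 99.6%, exact 95% binomial interval), beside 50.5% of all protein-coding genes. The background share lies inside that interval, which covers counting error only. The p300 list placed no peak within 1 kb of an end of any cascade gene, which is 0 of 7 (0 to 41.0%), beside 13.5% of all genes. Inside the gene, more than 1 kb from both ends, p300 lay in 3 of 7 (9.9 to 81.6%), namely Map2k1, Map2k2 and Mapk3, against 7.99% of all genes. The Mapk3 peak began 1058 bp from an end, just past the 1 kb limit, and counted as an end peak with a window of 2 kb. H3K4me3 lay inside 3, namely Araf, Map2k1 and Map2k2, against 21.6%. The genes with either peak inside were Mapk3 (6191 bp), Map2k2 (18785 bp), Araf (62815 bp) and Map2k1 (67837 bp). Those with neither were Hras (4086 bp), Nras (9630 bp) and Braf (122428 bp). The part of gene length in these counts was not tested. Within 50 kb, p300 was found for 6 of 7, every gene but Araf (85.7%, 42.1 to 99.6%), beside 44.2% of all genes, also inside the interval.

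**Figure D1:**
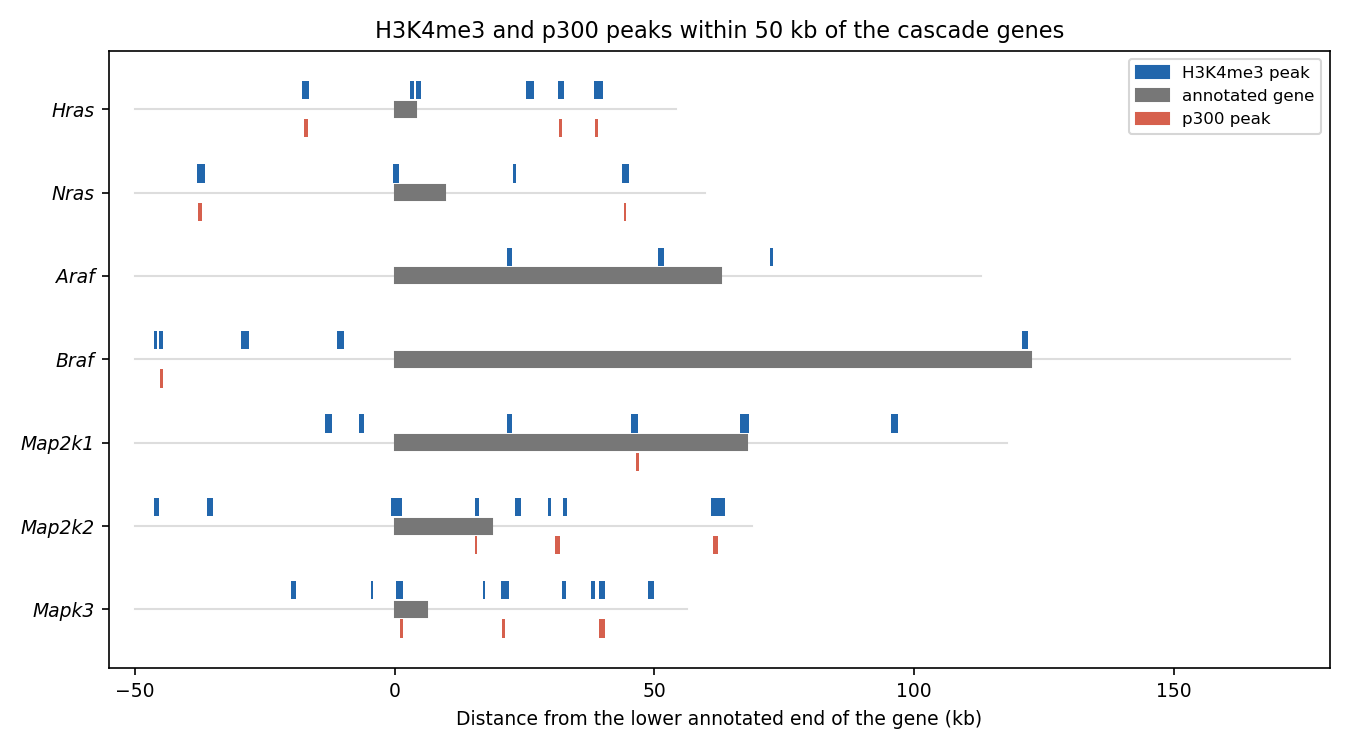
Peaks of H3K4me3 (blue, above the line) and p300 (red, below it) are drawn to scale along the annotated span of each gene (grey) and 50 kb to either side, with the horizontal axis in kb from the lower annotated end; peaks under 0.5 kb are drawn 0.5 kb wide. H3K4me3 lies at or in all 7 genes, p300 lies inside Map2k1, Map2k2 and Mapk3, and the window of Araf holds no p300 peak.

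The RAS genes encode the GTP-binding switches at the top of the cascade. Hras (chromosome 7, 141189934 to 141194019) had 2 H3K4me3 peaks at its upper end. The stronger ran from 141194033 to 141194943, with a fold enrichment of 6.64 over the authors' background, and the weaker from 141192776 to 141193580, with a fold of 3.98. A gap of 452 bp separated them, and the RefSeq start site of Hras at 141194004 lay in it. Genes with 2 or more such peaks made up 22.7% of all genes with an end peak. Lrrc56, a gene for a leucine-rich repeat protein, has its lower annotated end 91 bp beyond the upper end of Hras, and both peaks also counted for it, so the mark cannot be credited to Hras alone.

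Nras (chromosome 3, 103058285 to 103067914) had 1 H3K4me3 peak of 1154 bp, from 103057999 to 103059152. Its fold of 9.81 was higher than that of 84.5% of the 11045 genes with an end peak. The peak covered the start site and had its summit 254 bp downstream of it.

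The RAF genes encode the kinases that RAS recruits. Braf (chromosome 6, 39603231 to 39725658) had the highest fold of the 6 end peaks, 10.1, in a peak of 1086 bp from 39724024 to 39725109. A distance of 354 bp separated its nearest edge from the start site at 39725463, and the whole peak lay downstream of that site. Araf (chromosome X, 20797707 to 20860521) had no peak at either annotated end. Its start site at 20848543 lies 50836 bp inside the annotated span, and an H3K4me3 peak of 1123 bp and fold 9.13 covered it with its summit on the same base. A further H3K4me3 peak of fold 10.4, from 20819270 to 20820255, lay inside Araf. The start sites used, 21263 for the 21887 protein-coding genes, put none within 1 kb of it, and alternative start sites were not searched.

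The MEK genes encode the dual-specificity kinases that activate ERK, and taking the strongest end peak of each gene theirs were the widest and lowest of the 6. Map2k1 (chromosome 9, 64185769 to 64253605) had an end peak of 1739 bp, wider than that of 89.5% of genes with one, and a fold of 5.16, higher than 15.5%. Map2k2 (chromosome 10, 81105913 to 81124697) had an end peak of 1959 bp, wider than 94.8%, and a fold of 5.70, higher than 23.3%. Both peaks covered the start site, with summits 82 bp downstream of it in Map2k1 and 609 bp in Map2k2. Mapk3, which encodes the ERK kinase ERK1 (chromosome 7, 126759626 to 126765816), had a peak of 1376 bp and fold 7.35 from 126759813 to 126761188, close to the middle of all genes with 51.3% of them lower.

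**Figure D2:**
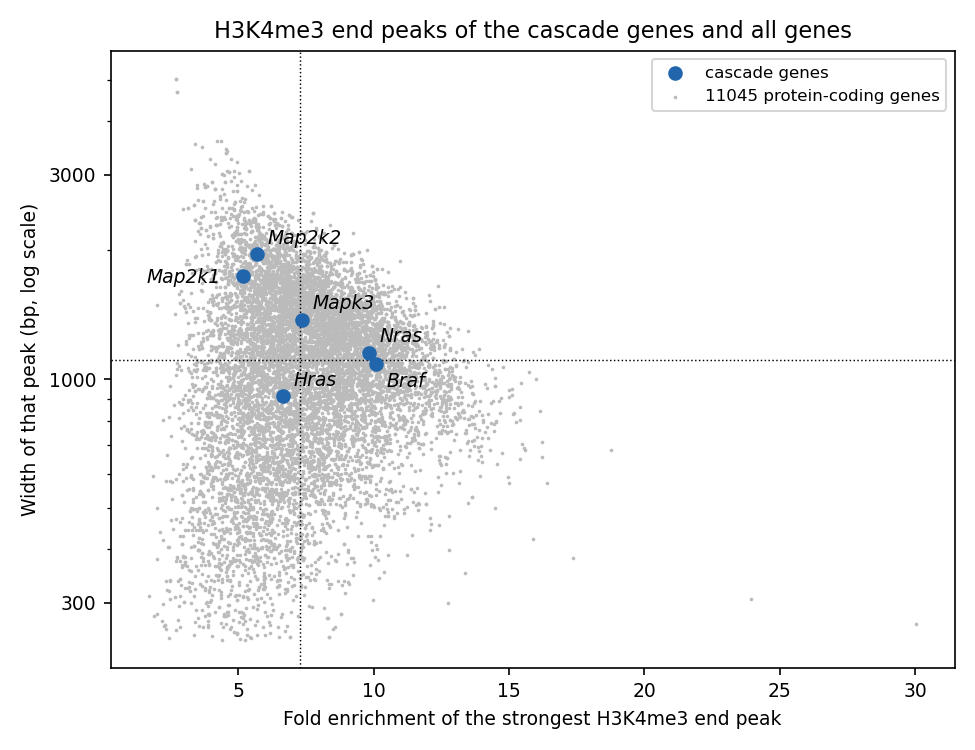
Each grey point is a protein-coding gene with an H3K4me3 end peak (11045 genes), placed by the fold enrichment of its strongest end peak and the width of that peak in bp on a log scale; dotted lines mark the medians, 7.28 and 1109 bp. Map2k1 and Map2k2 sit at low fold and large width, Nras and Braf at high fold and near the median width, and Araf has no end peak.

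As a set the end peaks were near the middle of the list. The median fold over the 6 genes lay between those of Hras and Mapk3, beside 7.28 over all genes with an end peak (quartiles 5.82 and 8.91), and 3 of the 6 lay above that median. Their median width was 1265 bp, beside 1109 bp. By −log10 q, which grows with the number of reads, 5 of the 6 lay above the median of 63.8 and Map2k1, with 37.4, below it.

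The reads at the summits put the genes in another order than the fold did. Reads were solved from the deposited fold and −log10 p. Map2k2 had the most, 219 (95% Poisson interval 191 to 250) over a background of 37.6. Braf had 194 (168 to 223) over 18.3, and Hras 184 (158 to 213) over 26.9 in the stronger of its peaks. The intervals of these 3 genes overlap one another. Mapk3 had 152 (129 to 178) over 19.8, and its interval overlaps those of Braf, Hras and Nras. Nras had 119 (98.6 to 142) over 11.2, and Map2k1 101 (82.3 to 123) over 18.8. Araf, at its start site, had the fewest with 86 (68.8 to 106) over 8.53, and the intervals of these last 3 overlap. The high fold of Nras and Araf thus went with a low background and the low fold of Map2k2 with a high one. Braf and Map2k1 had nearly the same background, and their summit reads had intervals that do not overlap. The intervals cover counting error only, since PCR copies are not independent molecules and no second library was available.

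**Figure D3:**
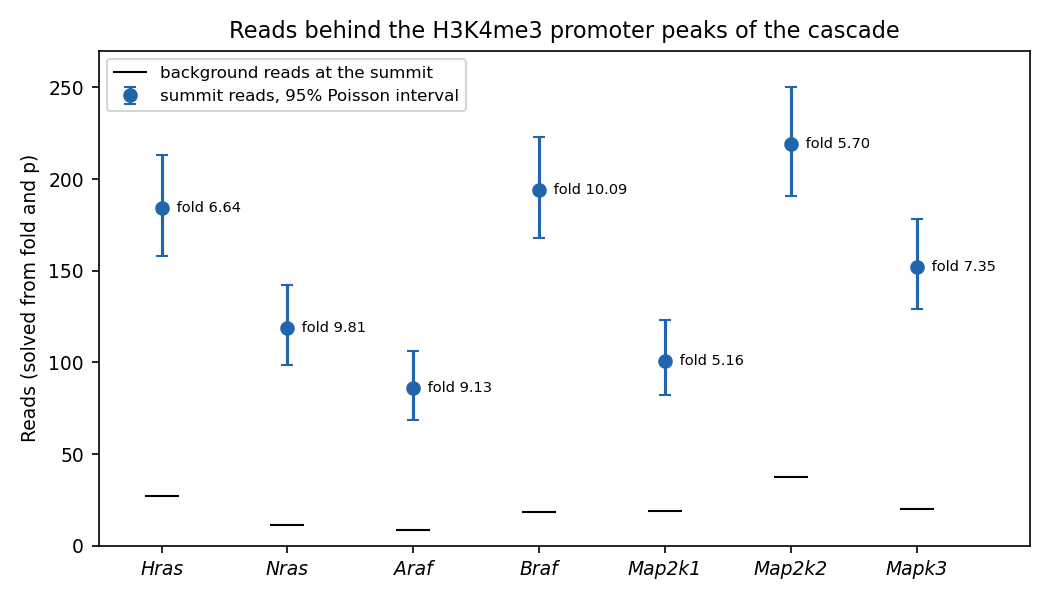
Points give the reads at the summit of the H3K4me3 end peak of each gene, the stronger one for Hras, with 95% Poisson intervals. Short bars give the background reads there. For Araf the peak at its start site is used. Mapk3 has no matched start site, so its peak, a promoter peak by the title, is known only as an end peak. Map2k2, Braf and Hras have the most reads, and the background is highest at Map2k2 (37.6) and lowest at Araf (8.53).

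The RefSeq promoter sequences gave 6 start sites, those of Hras, Nras, Araf, Braf, Map2k1 and Map2k2. An H3K4me3 peak covered the start site in 4 and left it bare in Hras and Braf. Among 11012 start sites of protein-coding genes with a peak within 1 kb, 77.5% were covered. The 250 bases upstream of the start site are given for Hras and Braf, where the start site itself was outside a peak, for Araf, where the promoter lies within the annotated span, and for Map2k2, the widest peak. They are from RefSeq (GRCm38.p6), 5′ to 3′ in the direction of transcription. Capitals mark the motif matches named after the sequences, on either strand, and not every match of the motifs searched.
Hras, chr7:141194005-141194254, minus strand: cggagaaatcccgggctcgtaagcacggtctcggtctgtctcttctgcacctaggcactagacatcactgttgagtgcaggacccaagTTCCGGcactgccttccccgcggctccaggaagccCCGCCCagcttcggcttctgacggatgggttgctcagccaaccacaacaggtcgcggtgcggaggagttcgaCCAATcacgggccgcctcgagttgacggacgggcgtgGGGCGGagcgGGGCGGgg
Braf, chr6:39725464-39725713, minus strand: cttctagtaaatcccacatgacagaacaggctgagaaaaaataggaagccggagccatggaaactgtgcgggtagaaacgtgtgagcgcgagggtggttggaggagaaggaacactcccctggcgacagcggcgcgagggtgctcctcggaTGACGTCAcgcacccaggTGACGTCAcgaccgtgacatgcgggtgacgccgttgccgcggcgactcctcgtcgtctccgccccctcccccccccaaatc
Araf, chrX:20848293-20848542, plus strand: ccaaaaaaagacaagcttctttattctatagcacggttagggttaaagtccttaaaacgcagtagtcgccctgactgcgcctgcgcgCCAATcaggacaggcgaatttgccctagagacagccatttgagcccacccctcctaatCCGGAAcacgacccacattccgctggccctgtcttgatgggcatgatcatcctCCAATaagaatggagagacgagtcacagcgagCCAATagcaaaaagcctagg
Map2k2, chr10:81105665-81105914, plus strand: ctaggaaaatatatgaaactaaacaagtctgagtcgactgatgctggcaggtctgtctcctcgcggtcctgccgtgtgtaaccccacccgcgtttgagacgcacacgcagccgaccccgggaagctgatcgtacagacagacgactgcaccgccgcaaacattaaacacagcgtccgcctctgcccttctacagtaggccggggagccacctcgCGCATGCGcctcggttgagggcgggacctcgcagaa

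The promoters shared no single motif, and each was compared with 21238 protein-coding promoters of the same length. Braf held 2 copies of the cAMP response element TGACGTCA, the site of CREB and ATF factors, at positions -99 to -92 and -81 to -74 from the start site. At least 1 copy was found in 1.93% of all promoters and in none of the other 5 read here. Map2k2 held the core CGCATGCG of the NRF1 motif at -36 to -29, which 2.06% of promoters hold. Hras has in capitals 3 matches to the GC box GGGCGG, 1 to the ETS core CCGGAA and 1 to CCAAT. Araf has in capitals 3 matches to CCAAT and 1 to CCGGAA, and it was the only one of the 6 without GGGCGG, a motif found in 42.6% of promoters. CCAAT was found in 3 of the 6 (35.4% of all promoters), CCGGAA in 3 (15%), the E-box CACGTG in Nras alone (6.63%) and TATAAA in none (11.6%). The upstream sequences held 12 CpGs in Araf, 14 in Nras, 23 in Map2k2 and 24 each in Hras, Braf and Map2k1, beside a median of 10 over all promoters. A match gives letters only and shows no binding.

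**Figure D4:**
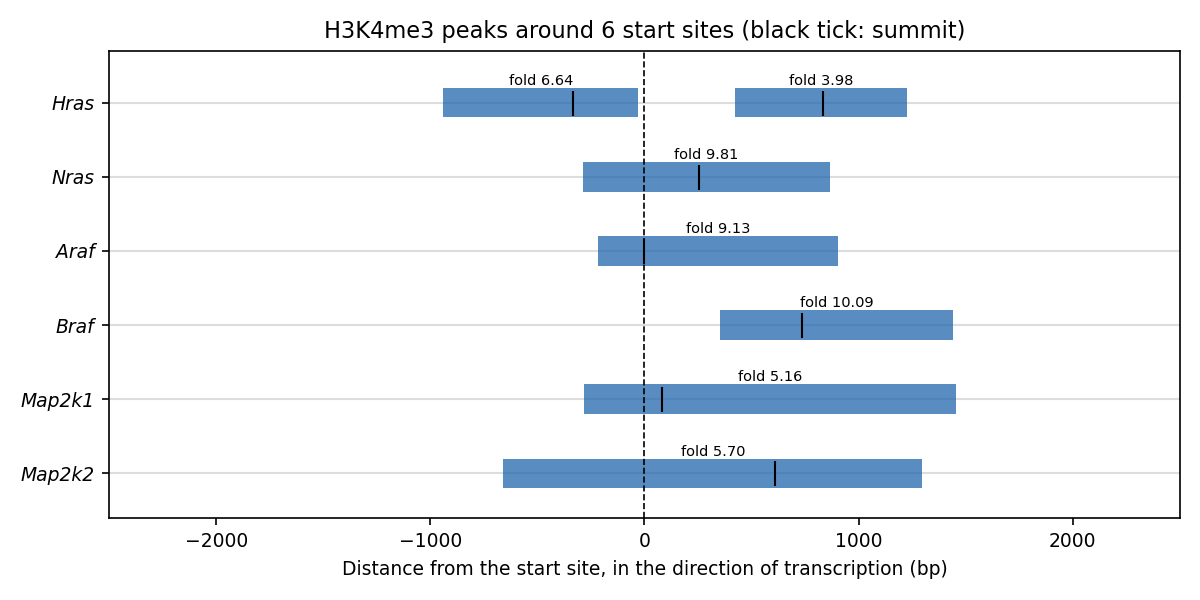
H3K4me3 peaks (bars, with the summit as a black tick and the fold above) are placed by distance in bp from the RefSeq start site, with the direction of transcription to the right. The bars of Nras, Araf, Map2k1 and Map2k2 cross the start site, the bars of Hras stand on either side of it and the bar of Braf begins 354 bp downstream.

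p300 inside a cascade gene was found at Mapk3 and at both MEK genes, each time over H3K4me3. The Mapk3 peak ran from 126760684 to 126761045 with a fold of 4.51 and 33 summit reads (22.7 to 46.3). It began 1058 bp from the annotated end, just outside the 1 kb window, and lay wholly inside the H3K4me3 end peak, with the summits 297 bp apart. Mapk3 was thus the 1 gene of the 6 whose H3K4me3 end peak met p300, beside 27.3% of all genes with such a peak. In Map2k1 a p300 peak of fold 4.69 from 64232219 to 64232796 overlapped an H3K4me3 peak of fold 5.87, 20809 bp from the nearer end. None of the start sites used lay within 1 kb, and alternative start sites were not searched. In Map2k2 a p300 peak of fold 4.26 from 81121299 to 81121688 overlapped an H3K4me3 peak of fold 4.82, 3009 bp from the nearer end. Here too none of the start sites used lay within 1 kb.

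Within 50 kb the 7 windows held 13 p300 peaks, of which 8 stood at an end of another protein-coding gene. That is 61.5% (31.6 to 86.1%), beside 37.5% of all p300 peaks at an end of any protein-coding gene, a share inside the interval. Hras, Map2k2 and Mapk3 had 3 each, Nras 2, Braf and Map2k1 1 each and Araf 0. The strongest by fold, 7.43 with 70 reads (54.6 to 88.4), lay at an end of Rnh1, the ribonuclease inhibitor gene, 16697 bp from Hras. The p300 peak with the most reads, 113 (93.1 to 136), lay at an end of the glycolytic gene Aldoa, 33045 bp from Mapk3, with a fold of 5.36. A Nras peak of fold 5.03 lay at an end of Dennd2c, 34460 bp away, and the Braf peak of fold 3.67 lay at Dennd2a, 44633 bp away. The nearest p300 peak to Araf was 109235 bp away.

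Most of the 13 peaks were weak within the p300 list by fold and by −log10 q, while their median summit reads were near the list median. Of them 11 had a fold under the list median of 5.76 and 10 a −log10 q under its median of 15.6. Their median fold was 4.69, beside 5.71 for p300 peaks within 50 kb of any protein-coding gene, and their summits held 24 to 113 reads with a median of 36, beside a list median of 39 in 2000 drawn peaks. Only Hras and Nras, 2 of the 7 genes, had a p300 peak within 50 kb of at least the median fold, beside 27.6% of all genes. For −log10 q the count was 3 of 7, beside 27.1%. H3K4me3 overlapped 12 of the 13, which is 92.3% (64.0 to 99.8%), beside 85.5% of all p300 peaks. The exception, of fold 4.24 from 81136839 to 81137666, lay in the transcription factor gene Zbtb7a, 12142 bp from Map2k2. A start site of Zbtb7a lay within 1 kb of it.

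**Figure D5:**
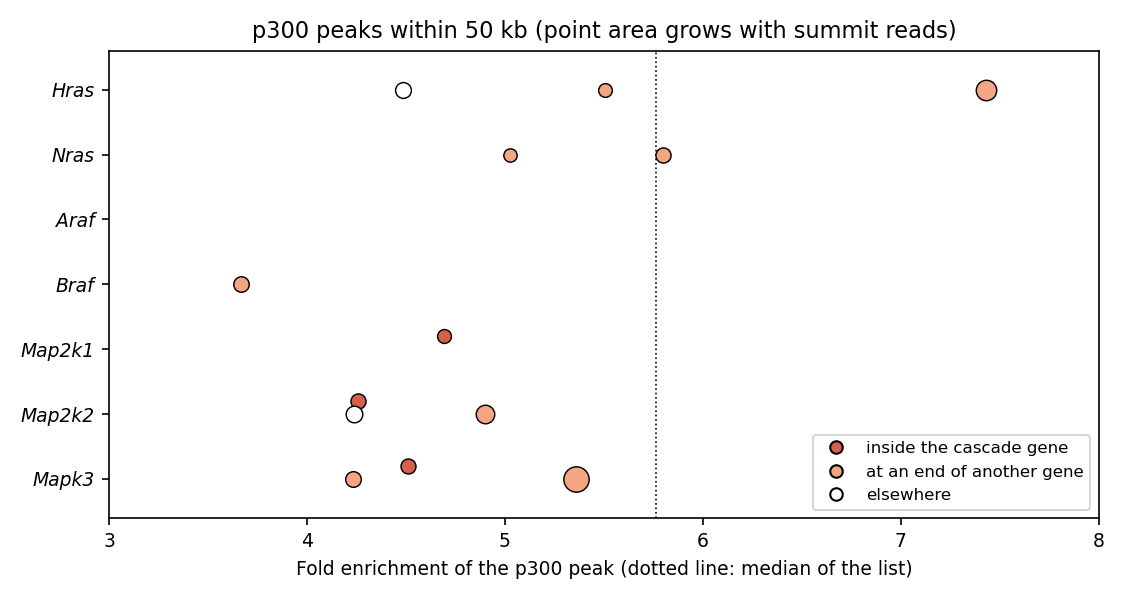
Each point is a p300 peak within 50 kb of a gene, placed by its fold enrichment, with an area that grows with its summit reads; the dotted line is the list median of 5.76, and points inside a gene are set slightly higher to avoid overlap. The peaks range from 3.67 at Braf to 7.43 at Hras, 2 of 13 lie at or right of the line, and Araf has none.

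Most of the other genes of the pathway carried H3K4me3 at an end, and some carried p300 there. The list held 34 genes, of which 27 (79.4%, 62.1 to 91.3%) had an H3K4me3 end peak, beside 50.5% of all genes. For p300 the count was 9 (26.5%, 12.9 to 44.4%), beside 13.5%, which lies inside the interval. By role, H3K4me3 was at an end of all 5 RAS GTPase activators, 3 of 4 RAS relatives, 6 of 8 adaptors and exchange factors, 6 of 8 scaffolds and modulators, and 5 of 7 kinases activated by ERK. The highest H3K4me3 folds were 9.83 at Rasal2, a RAS GTPase activator, and 9.14 at Shoc2, a scaffold that helps activate RAF. The highest p300 folds at an end were 11.2 at Shoc2, 7.81 at Lamtor3, an endosomal MEK scaffold, 6.88 at the adaptor gene Grb2 and 6.46 at Rps6ka5, which encodes the kinase MSK1. The 7 genes without an H3K4me3 end peak were Rps6ka2, Rps6ka4, Mras, Rasgrp1, Rasgrf1, Iqgap1 and Ksr2. Rasgrf1, an exchange factor best known from neurons, had none inside the gene either, and the other 6 had 1 to 3 there.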

How the data were processed

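CUT&Tag was done on B16 cells with 1 µg of antibody, 18 PCR cycles and paired reads of 150 bp, per the labels' protocols. The submitters' processing notes name the build mm10 and the tools deepTools, Picard 2.22.4, Bowtie2 2.2.5 and Trim Galore. For the peak caller, control library and pooling, no source used here gives a name. The authors deposited 1 narrowPeak list per library, with a fold (a ratio to a background), −log10 p, −log10 q and a score for each peak. These values are the authors' and were compared only between peaks of one list. The 24 H3K4me3 and 17 p300 peaks on other sequences were left out.

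Genes came from RefSeq GRCm38.p6, whose table gives both ends of a gene but no strand. Start sites came from its promoter sequences, which matched 6 of the 7 genes. These sequences gave 21263 start sites for the 21887 protein-coding genes, so alternative start sites were not searched. Overlap meant at least 1 bp. Counts of genes carry exact 95% binomial intervals and reads carry Poisson intervals, all for counting error only. Summit reads were solved from (reads + 1)/(background + 1) and a Poisson tail, and whole numbers gave −log10 p within 0.002 for 99.95% of 2000 H3K4me3 and 99.75% of 2000 p300 peaks drawn. The solution and the overlap counts were tested on simulated data. Python 3.11.15, pandas 2.3.3 and SciPy 1.17.1 were used. Named genes were all members, genes that share an end peak with one, and, in the list of 34, the 4 highest by H3K4me3 fold, the 4 highest by p300 fold at an end and all without an H3K4me3 end peak. Neighbours at p300 peaks were named after their values were seen, some genes the rule names are not reported here, and the 7 motifs were chosen after the sequences had been read. The members and lists were chosen with earlier results of these data known. With 1 library per list no test was made.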

Additional observations from a re-analysis of the deposited data

How the results depend on the processing

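Of 32 alternatives, 21 kept a count within 1.5 times its value, a share within its binomial interval or a median fold equal to 2 decimals. The count of 0 genes with p300 at an end became 1, Mapk3, with a window of 2 kb, and also 1 when p300 had to overlap the H3K4me3 end peak, a criterion added after the data were seen. The count of 6 genes with p300 within 50 kb fell to 2 when only peaks of at least the list median fold were used. With the median −log10 q it fell to 3. The share of all genes fell from 44.2% to 27.6% and 27.1% in the same order. Overlap with H3K4me3 was 100% among p300 peaks of at least the median fold, of which 2 were left. The background shares for autosomal protein-coding genes were 51.9% for H3K4me3 at an end, 14.1% for p300 at an end and 46.3% for p300 within 50 kb, and for all RefSeq genes, noncoding ones included, 29.1%, 7.79% and 33.6% in the same order. H3K4me3 at an end held for 4 to 6 of the 7 genes under every alternative that used gene ends. With start sites only, it was found for all 6 genes with a matched start site, which include Araf and leave out Mapk3. No paired analysis was possible because there was 1 library for each target and no result came from a test. With no replicate, variation between cultures could not be measured, and weak sites may be missing from either list.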
